A study of Mus musculus with 24 samples.

Results

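Wt1 and 13 families of developmental transcription factors (Hoxa, Hoxb, Hoxc, Hoxd, Irx, Pax, Lhx, Nkx, Tbx, Gata, Onecut, Pou and the sine oculis homologues) were followed in the striatum of 24 mice. The genes were taken by symbol from the protein-coding rows of the deposited read counts, without Six3, a gene of the developing and adult striatum. A gene also needed at least 20 reads summed over the 24 libraries. Of the 54532 rows of the table, 121 carried such a symbol and 72 reached the minimum. The families were chosen by their carrier values: Wt1, Onecut1, Hoxc4 and Hoxc5 had been seen to be far higher in carriers of the Q175 allele. Every value of carriers against non-carriers below is therefore a description, and it supports no statement about these families.

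Q175 mice carry an expanded CAG repeat that was knocked into Htt, the gene mutated in Huntington's disease. The protein of Tyrobp passes on signals from receptors at the surface of microglia. The 4 groups were wild type (WT), animals with Tyrobp deleted (TyrobpKO), heterozygous Q175 animals (Q175), and heterozygous Q175 animals with Tyrobp deleted (Q175_TyrobpKO). Each group had 6 animals, 3 males and 3 females, all labelled C57BL/6, with 1 library per animal from the striatum of 1 hemisphere. The labels give no age and no repeat length. The 12 animals of Q175 and Q175_TyrobpKO are called carriers, and the 12 of WT and TyrobpKO non-carriers. Animal numbers carried 1 prefix in both groups with the deletion, while all Q175 animals had another prefix that only 1 WT animal shared. Q175 against WT is thus partly a contrast of prefixes, and Q175_TyrobpKO against TyrobpKO is not. Q175_TyrobpKO against Q175 and TyrobpKO against WT are wholly contrasts of prefixes, so deletion and prefix cannot be told apart there.

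The proteins of these families bind DNA and set the identity of cells and body regions in the embryo. Hox genes lie in 4 clusters, HoxA to HoxD, and are used in the order of their numbers from the hindbrain down the spinal cord. The forebrain, which includes the striatum, forms in front of their domain. Polycomb complexes keep many of these genes silent in adult neurons by modifying histones over their CpG-rich promoters. Adult neurons made to lack Polycomb repressive activity are known to express some of these genes. Other members, such as Pou3f1, Lhx6 and Onecut2, are used in forebrain neurons as a matter of course.

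Libraries held 25.5 to 34.6 M (megareads) assigned to genes. Tyrobp stood at 0.214 to 0.448 CPM in the libraries labelled with the deletion and at 5.69 to 11.8 CPM in the others, and Htt at 137 to 178 CPM in carriers against 188 to 236 CPM in non-carriers. CPM are counts per megaread of the library, scaled by edgeR's TMM factors. A gene was called at an adjusted p under 0.05 in edgeR's quasi-likelihood test, with Benjamini-Hochberg adjustment over 19667 genes. Each log2 difference is given ± its standard error (SE). All 12 striatal projection neuron markers, among them Drd1 and Penk, were read in every group, and 10 of them were lower in carriers. Their summed level was 6081 to 10320 CPM in non-carriers and 4177 to 6825 CPM in carriers. In bulk tissue, fewer cells of a type and less RNA per cell cannot be told apart.

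Of the 72 members, 40 had enough reads for the fit and 32 did not. Carriers against non-carriers called 13 of the 40 higher and 4 lower. Over all genes tested, 8.85% were called higher and 9.17% lower. The median log2 fold change was 0.07 over the 40 members and 0.00 over all genes. A member that reached the fit only through its carrier reads had to differ, so these counts describe the tested members and say nothing for the 72. Of the 72, 46 would have reached the minimum on non-carrier reads alone, and 26 had under 20 reads there. Of these 26, 22 had at least 20 reads in carriers and 4 were under 20 in both. The threshold of 20 reads fell in a run of low values. Hoxc9 (22 reads, all in carriers), Lhx5 (24 reads, 14 in carriers, 7 of these in Q175 replicate 3) and Hoxb6 (24 reads, all in carriers) were just inside. Pou1f1 (19 reads, 9 in carriers) and Hoxb8 (16 reads, all in carriers) were just outside.

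Wt1, a zinc-finger factor of kidney and gonad development, was read in all 24 libraries (chr2:105126529-105173616, plus strand, GRCm38). The 6 WT libraries had 0.0355 to 0.324 CPM with a median of 0.0946 CPM. The TyrobpKO libraries had 0.0714 to 0.392 CPM (median 0.0824). The Q175 libraries had 3.33 to 7.63 CPM (median 5.52), and the Q175_TyrobpKO libraries 3.52 to 6.97 CPM (median 5.08). The lowest carrier was thus far above the highest non-carrier, and the 2 carrier groups overlapped almost throughout. Summed over libraries, Wt1 had 46 reads in non-carriers and 1790 in carriers, a difference of 5.23 ± 0.25 on the log2 scale. Per length, its carrier mean of 0.857 RPKM (reads per kilobase of exon and megaread) stood at percentile 19.2 of the protein-coding genes tested, where the median gene had 5.09 RPKM. Its non-carrier mean was at percentile 0.0528. Wt1 was therefore a low-level transcript in carriers and close to unread in the others.

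Onecut1, a factor of liver, pancreas and motor neuron development, had 19 reads in non-carriers and 1104 in carriers (chr9:74861921-74891781, plus strand). WT libraries had 0 to 0.144 CPM (median 0.0758) and TyrobpKO libraries 0 to 0.116 CPM (median 0.0324). Q175 libraries had 2.79 to 3.73 CPM (median 3.21) and Q175_TyrobpKO libraries 2.36 to 4.29 CPM (median 3.33). The groups again split by the Q175 allele with no overlap, with a log2 difference of 5.80 ± 0.29. In the annotation GENCODE M21, 52.8% of the exonic bases of Onecut1 are shared with Gm20649, a noncoding gene on the same strand that had 0 reads in carriers and 0 in non-carriers. Onecut2, its paralogue, was a striatal gene in all groups. Its level was 91.2 ± 18.6 CPM in WT and 76.0 ± 17.1 CPM in TyrobpKO (mean ± SD, n = 6). It was 118 ± 13.2 CPM in Q175 and 121 ± 31.7 CPM in Q175_TyrobpKO. The highest non-carrier, at 125 CPM, was above the lowest carrier, at 88.7 CPM, and the log2 difference was 0.53 ± 0.12, called higher. In females alone the call was lost, at 0.31. Onecut3, under the minimum, had 1 read in carriers and 5 in non-carriers.

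**Figure D1:**
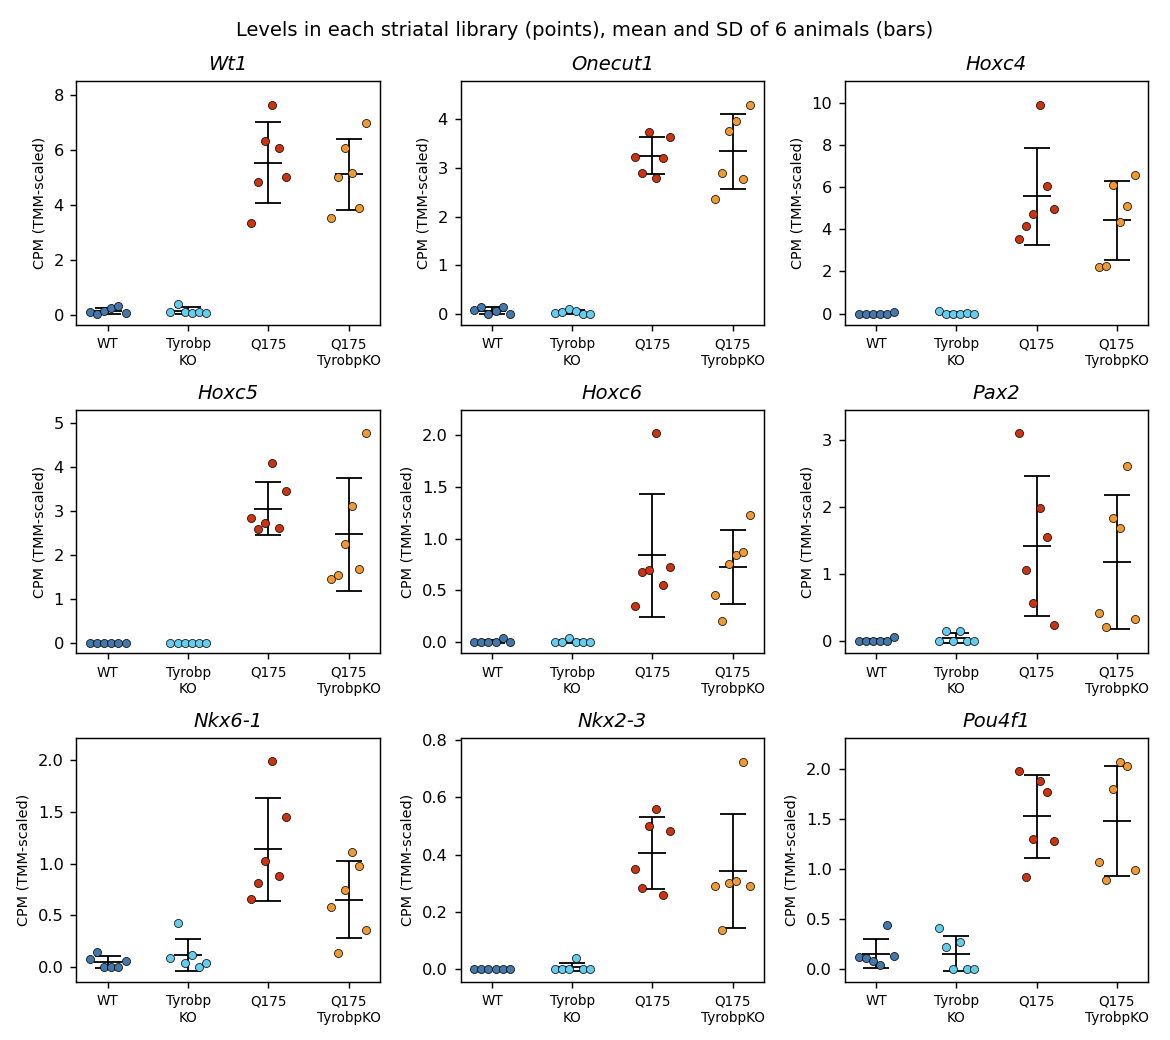
Each panel plots 1 gene: TMM-scaled CPM on a linear axis, by genotype, with 1 point per animal and the mean and SD of 6 animals as bars. In all panels but Nkx6-1, every Q175 and Q175_TyrobpKO animal lies above every WT and TyrobpKO animal; in Nkx6-1 the lowest carrier, at 0.137 CPM, lies below the highest non-carrier, at 0.428 CPM.

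In carriers the HoxC cluster held most of the Hox reads (2958 of 3545), and in non-carriers it held the fewest of the 4 clusters (13 of 162). Hoxc4, the first gene of this cluster by number, had 9 reads in non-carriers and 1675 in carriers (chr15:103018934-103036852, plus strand). It was at 0 CPM in 5 WT and 4 TyrobpKO libraries, and its highest non-carrier had 0.146 CPM. Q175 libraries had 3.56 to 9.90 CPM (median 4.85) and Q175_TyrobpKO libraries 2.20 to 6.57 CPM (median 4.73). Carriers were 186-fold higher in reads per library size, with a 95% counting interval of 97.9 to 408. Of the 9 non-carrier reads, 5 were in TyrobpKO replicate 1, and without that animal the ratio was 377. Without Q175 replicate 4, the carrier with most reads, it was 169. Hoxc5 had no read in any non-carrier and 924 in carriers, at 2.58 to 4.08 CPM (median 2.78) in Q175 and 1.45 to 4.76 CPM (median 1.96) in Q175_TyrobpKO. Against a floor of 3 reads over the 12 non-carriers, it was at least 308-fold higher in carriers. Hoxc6 had 2 reads in non-carriers and 263 in carriers, a ratio of 132 with a counting interval of 36.1 to 1093. The ratio of Hoxc6 was 242 without WT replicate 5, which held 1 of the 2 reads, and 112 without Q175 replicate 4. Its Q175 libraries had 0.349 to 2.02 CPM (median 0.685) and its Q175_TyrobpKO libraries 0.205 to 1.23 CPM (median 0.797). All 12 carriers had reads of these 3 genes, and no carrier overlapped a non-carrier in any of them. Intervals and floors cover counting error only.

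Levels fell from Hoxc4 to Hoxc8. Per length, carrier means were 1.94 RPKM for Hoxc4, 0.892 for Hoxc5, 0.325 for Hoxc6 and 0.0536 for Hoxc8. Hoxc8 had 0 reads in non-carriers and 51 in carriers, in 8 of the 12. Hoxc9 had 22 reads, all in carriers. The table's span of Hoxc5 contains Hoxc6, Hoxc8 and Hoxc9, and 5.37% of its exonic bases are shared with Hoxc10, while Hoxc4 and Hoxc6 share none. Hoxc10 and Hoxc13, under the minimum, had 13 and 10 reads in carriers against 0 and 2 in non-carriers, and Hoxc11 and Hoxc12 had 0 in all libraries.

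The other clusters had fewer reads than HoxC in carriers and more in non-carriers. In HoxA, Hoxa7 had 48 reads in non-carriers and 140 in carriers. Non-carriers had 0 to 0.392 CPM (median 0.144) and carriers 0.155 to 0.718 CPM (median 0.389), so the groups overlapped, with a log2 difference of 1.58 ± 0.42 that was called higher. It shares 20.4% of its exonic bases with Hoxaas3, on the opposite strand. Hoxa7 was not called in either sex alone, at 1.20 in males and 1.94 in females. Hoxa5 had 0 reads in non-carriers and 42 in carriers, in 7 animals, with Q175 replicate 2 highest at 0.530 CPM. In HoxB, Hoxb5 had 0 reads in non-carriers and 57 in 9 carriers. Of these, Q175 replicate 3 alone gave 0.965 CPM, while the other Q175 animals had 0 to 0.177 CPM. Without replicate 3, Hoxb5 was at least 10.3-fold higher in carriers, against at least 19.0-fold with it. Hoxb6 had 24 reads, all in carriers. Hoxb4 had 20 reads in non-carriers and 18 in carriers, of which 13 were in Q175 replicate 3, so that 5 were left without it. In HoxD, Hoxd8 had 0 reads in non-carriers and 79 in 10 carriers, with 0 to 0.627 CPM (median 0.388) in Q175 and 0 to 0.218 CPM (median 0.133) in Q175_TyrobpKO. Hoxd1, at the other end of the cluster, was read in 9 non-carriers and all 12 carriers, at means of 0.174 and 0.346 CPM, and was not called.

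**Figure D2:**
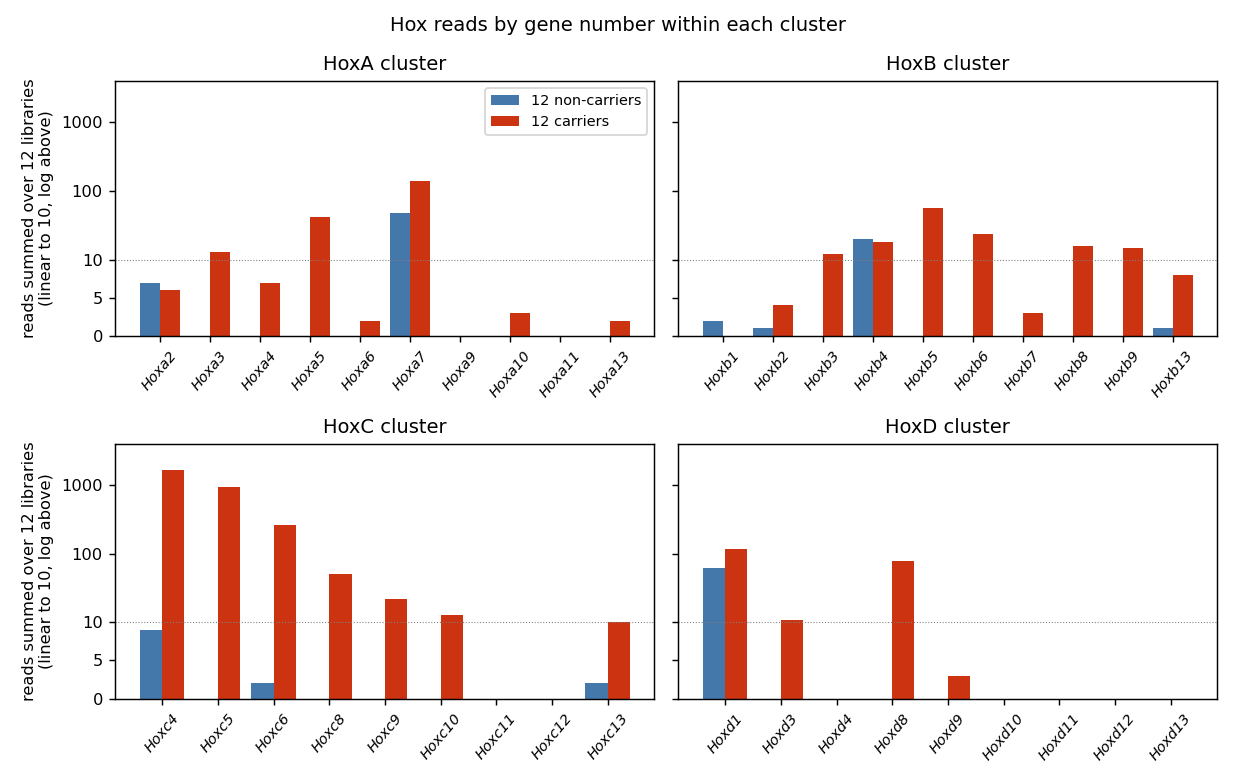
Bars give the reads of the Hox genes shown, summed over the 12 non-carriers (blue) and the 12 carriers (red), in 4 panels by cluster, on an axis that is linear to 10 reads and logarithmic above. Carrier reads are highest at Hoxc4 (1675) and fall from there to Hoxc10, while Hoxa2, Hoxb1 and Hoxb4 have more reads in non-carriers.

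Grouped by gene number, Hox genes 1 to 3 had 80 reads in non-carriers and 168 in carriers, numbers 4 to 8 had 79 and 3301, and numbers 9 to 13 had 3 and 76. HoxC gave 2913 of the 3301 carrier reads of numbers 4 to 8. Each carrier library had 154 to 533 Hox reads (median 286) and each non-carrier 2 to 32. Carriers had a read in 9 to 21 Hox genes and non-carriers in 1 to 7. Without Hoxc4, Hoxc5 and Hoxc6, carriers had 24 to 150 Hox reads and non-carriers 2 to 27, so the ranges then met at their ends. The 28 Hox rows under the minimum of 20 reads had 134 reads in carriers and 22 in non-carriers.

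Pax and Nkx genes gave both large and small differences. Pax2, a factor of the midbrain-hindbrain boundary, kidney and spinal interneurons, had 10 reads in non-carriers and 426 in carriers (chr19:44756045-44837871, plus strand). It was read in 1 WT and 2 TyrobpKO libraries, up to 0.149 CPM. The ratio of carriers to non-carriers was 42.6, with 65.2 without TyrobpKO replicate 2 and 37.5 without Q175 replicate 1. Q175 libraries had 0.242 to 3.10 CPM (median 1.30) and Q175_TyrobpKO libraries 0.205 to 2.61 CPM (median 1.05). The lowest carrier was above the highest non-carrier, although carriers differed widely among themselves. Pax6, a regulator of forebrain progenitors and some adult interneurons, had 6.63 to 10.2 CPM in non-carriers (median 7.97) and 8.68 to 14.3 CPM in carriers (median 10.6). The Pax6 log2 difference was 0.44 ± 0.08, called higher with overlapping ranges, and the call was lost in males alone, at 0.48. Pax1, Pax5 and Pax9 had too few reads for the fit, with 46, 53 and 15 reads in carriers and 41, 28 and 25 in non-carriers. Of the 41 reads of Pax1, 17 were in TyrobpKO replicate 5.

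Among the Nkx genes, Nkx6-1, a factor of motor neuron progenitors and of insulin-secreting cells, had 28 reads in non-carriers and 302 in carriers (chr5:101658139-101664996, minus strand). Q175 libraries had 0.659 to 1.99 CPM (median 0.958) and Q175_TyrobpKO libraries 0.137 to 1.11 CPM (median 0.666). Non-carriers had at most 0.142 CPM in WT and 0.428 CPM in TyrobpKO, and the next TyrobpKO value was 0.112 CPM. The log2 difference was 3.42 ± 0.47. Of the 28 non-carrier reads, 12 were in TyrobpKO replicate 2. The ratio of reads per library size was 10.8 with that animal and 17.3 without it. Without Q175 replicate 4, the carrier with most reads, the ratio was 9.58. Nkx2-3, a factor of gut and spleen development (chr19:43612325-43615892, plus strand), had too few reads for the fit but did not overlap. Its carriers had 0.137 to 0.726 CPM and 126 reads, and all 12 non-carriers together had 1 read, in TyrobpKO replicate 4, a ratio of 126 with a counting interval of 22.2 to 5021. Without that animal Nkx2-3 was at least 38.7-fold higher. Nkx1-1 had 1 read in non-carriers and 30 in carriers (ratio 30.0, interval 4.99 to 1225). Of the 30, 12 were in Q175 replicate 2 and 6 carriers had none, and without that animal the ratio was 19.7. Without WT replicate 5, which held the non-carrier read, Nkx1-1 was at least 9.19-fold higher. Nkx2-2, which acts in oligodendrocyte precursors, had 4.29 to 6.92 CPM in non-carriers and 5.54 to 8.52 CPM in carriers, and Nkx2-9 had 1.36 to 2.81 and 1.59 to 3.61 CPM. Both were called higher, at log2 differences of 0.26 ± 0.09 and 0.42 ± 0.14, and each lost its call in 19 of 33 alternative settings. Nkx6-2, an oligodendrocyte factor and the Nkx gene with the highest CPM, had means of 20.1 and 21.6 CPM and was not called. Nkx2-1, a factor of pallidal and interneuron progenitors, had 5.76 and 5.86 CPM.

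The POU genes held most of the reads of all families, 160301 in non-carriers and 145297 in carriers, and moved in different directions. Pou4f1 (Brn3a), a sensory neuron and habenula factor (chr14:104461676-104467999, minus strand), had 52 reads in non-carriers and 499 in carriers. WT libraries had 0.0377 to 0.432 CPM (median 0.110) and TyrobpKO libraries 0 to 0.409 CPM (median 0.107). Q175 libraries had 0.919 to 1.98 CPM (median 1.53) and Q175_TyrobpKO libraries 0.888 to 2.07 CPM (median 1.43). Every carrier was above every non-carrier, and the log2 difference was 3.25 ± 0.39. Its paralogues Pou4f2 and Pou4f3 had 5 and 31 reads in non-carriers and 31 and 76 in carriers, too few for the fit. TyrobpKO replicate 3 held 4 of the 5 reads of Pou4f2.

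The 3 POU genes called lower are expressed in the adult forebrain. Pou3f1 (Oct6), a factor of cortical and glial differentiation, had 53.9 to 84.5 CPM in non-carriers (median 76.9) and 35.1 to 76.3 CPM in carriers (median 54.2). Pou3f3 (Brn1), a factor of neural progenitors and upper-layer neurons, had 155 to 206 CPM in non-carriers (median 169) and 131 to 159 CPM in carriers (median 151). Pou2f2 (Oct2), known from B cells and also read in neurons, had 11.6 to 17.2 CPM in non-carriers (median 14.4) and 8.12 to 13.2 CPM in carriers (median 11.3). In each, the ranges overlapped, and the log2 differences were -0.45 ± 0.10, -0.22 ± 0.04 and -0.36 ± 0.08. With fewer animals, none of the 3 was called in females alone (-0.53, -0.18 and -0.33) and Pou2f2 was not in males alone (-0.40). Lhx2, a LIM-homeodomain factor of cortical progenitors, was the remaining lower call, with 24.8 to 31.8 CPM in non-carriers and 19.0 to 28.8 CPM in carriers (log2 difference -0.26 ± 0.06). It was not called in either sex alone (-0.24 in males and -0.28 in females). Pou6f1, the most abundant POU gene by CPM after Pou3f3, had means of 116 and 114 CPM and was not called.

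**Figure D3:**
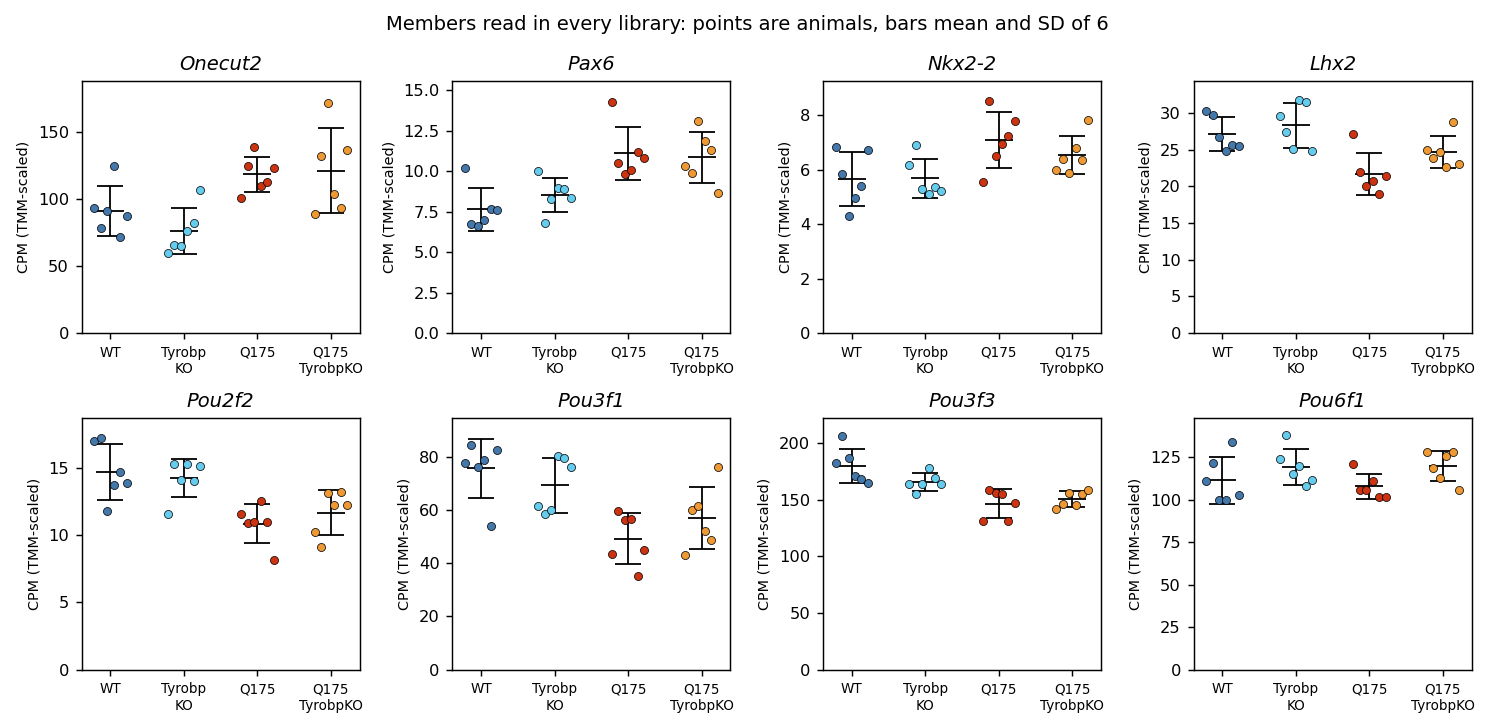
Each panel plots TMM-scaled CPM of 1 gene with reads in all libraries, on a linear axis from 0, by genotype, with 1 point per animal and the mean and SD of 6 animals. Onecut2, Pax6 and Nkx2-2 are shifted up and Lhx2, Pou2f2, Pou3f1 and Pou3f3 down in carriers, all with overlapping animals; Pou6f1 (means of 116 and 114 CPM) is shown as a gene that was not called.

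The remaining families gave no call. Irx3, an early neural patterning gene, had means of 0.433 CPM in non-carriers and 0.403 in carriers, and Irx5 had 0.206 and 0.386. Six5 had 2.56 and 2.29 CPM. Among the T-box genes, Tbx3 had the highest CPM, with 2.86 in non-carriers and 2.96 in carriers, and Tbx15, Tbx18 and Tbx6 had log2 differences of -0.50 ± 0.28, -0.30 ± 0.16 and -0.44 ± 0.25. Gata2, a factor of blood and of midbrain GABA neurons, had 3.48 and 3.70 CPM. Lhx6, which marks interneurons that come from the ganglionic eminence, had 20.1 and 18.6 CPM, and Lhx8, a factor of cholinergic neurons, had 5.91 and 6.22. Among the fitted members, the large differences were thus found in Wt1, Onecut1 and members of the Hox, Pax, Nkx and Pou families. Lhx and Gata members under the filter were not fitted. In non-carriers and carriers, Gata6 had 11 and 40 reads, Lhx1 17 and 61, and Lhx4 18 and 56. Lhx5 had 10 and 14, Lhx9 77 and 77, and Lhx3 17 and 10.

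Across the tested members, 7 had every carrier above every non-carrier, against 0.422% of all genes tested: Wt1, Onecut1, Hoxc4, Hoxc5, Hoxc6, Pax2 and Pou4f1. No member had every carrier below every non-carrier, where the share over all genes was 0.722%. With the filter lowered to 20 reads over all libraries, all 72 members entered the fit. Then 19 were called higher, where the share of all genes was 5.40%, and 4 lower, where 1740 of 27920 genes were. Of the members that the usual filter leaves out, this called Hoxa5, Hoxb5, Hoxb6, Hoxc8, Hoxc9, Hoxd8, Nkx1-1 and Nkx2-3. Each of them had 0 or 1 read in non-carriers and reached the minimum through its carrier reads, so it had to differ. Nkx2-2 and Nkx2-9 were no longer called.

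**Figure D4:**
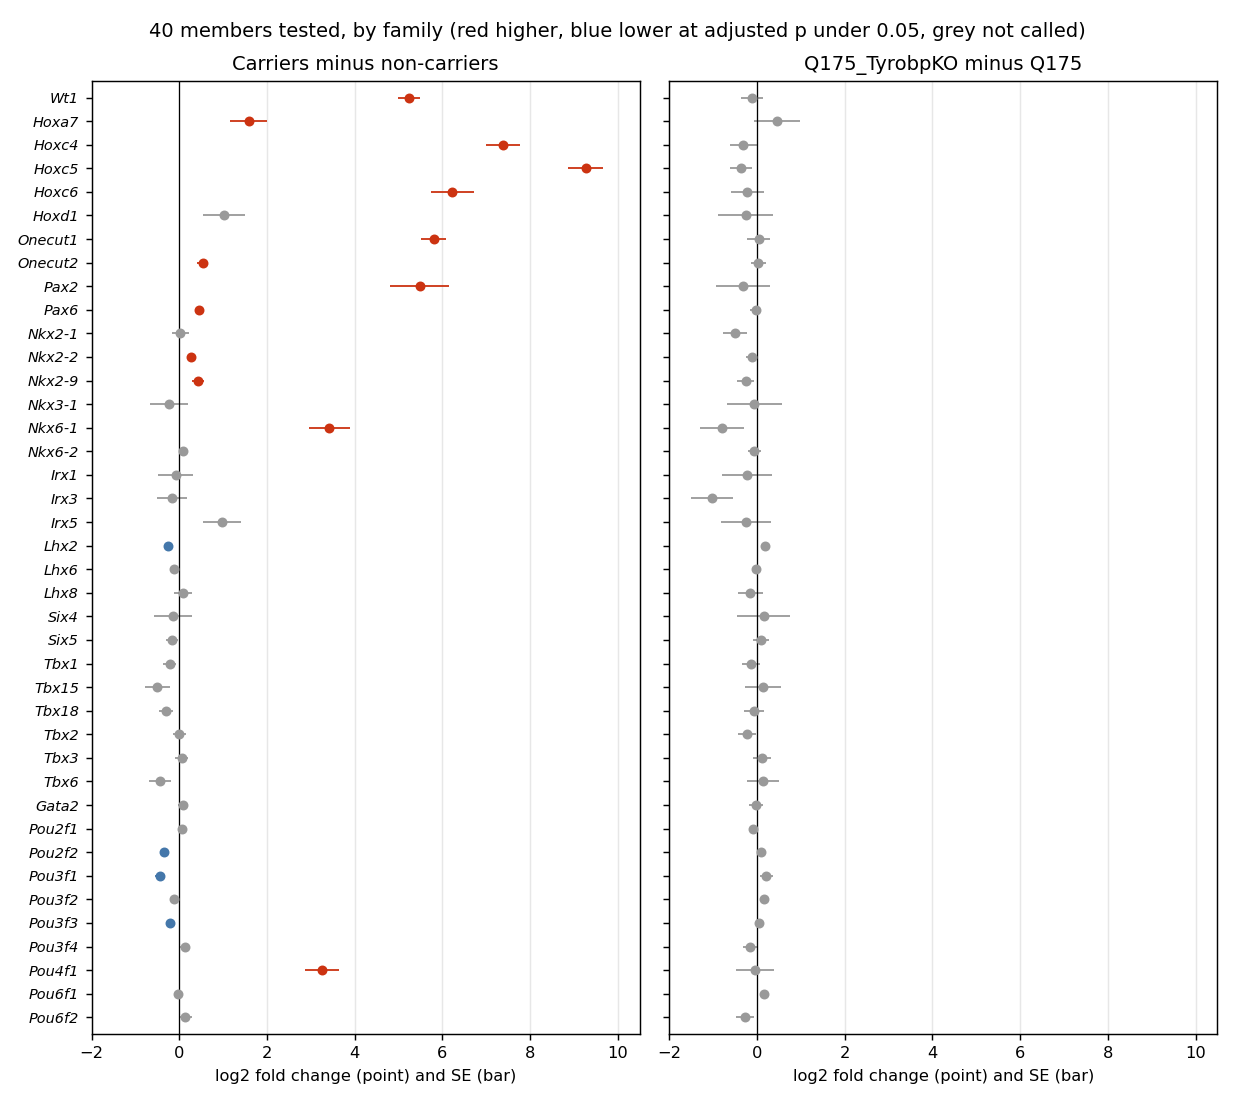
Points give log2 fold changes of the 40 tested members and bars their SE, ordered by family, on the left for carriers minus non-carriers and on the right for Q175_TyrobpKO minus Q175. On the left 13 members are called higher (red) and 4 lower (blue); on the right none is called, and the values run from -1.02 to 0.46. The fitted value of Hoxc5, which had no non-carrier read, depends on the prior count and is not a bound.

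Promoters from RefSeq (GRCm38.p6, 250 bases before to 50 after the start) were found for 49 of the 72 members. The windows below show how unlike in CpG content the starts of genes with more reads in carriers were. Of Onecut1, Pou4f1 and Nkx2-3 every carrier was above every non-carrier, Hoxd8 was read in 10 of 12 carriers only, and Pou3f3 was lower in carriers. Each is the 200 bases before the start, off every annotated exon, 5′ to 3′, with CpG dinucleotides in capitals.
Onecut1, chr9:74861721-74861920, plus strand: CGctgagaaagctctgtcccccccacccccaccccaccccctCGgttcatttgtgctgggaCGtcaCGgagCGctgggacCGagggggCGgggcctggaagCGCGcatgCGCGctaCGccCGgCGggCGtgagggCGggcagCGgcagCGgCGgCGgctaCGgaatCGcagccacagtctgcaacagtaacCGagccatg
Pou4f1, chr14:104468000-104468199, minus strand: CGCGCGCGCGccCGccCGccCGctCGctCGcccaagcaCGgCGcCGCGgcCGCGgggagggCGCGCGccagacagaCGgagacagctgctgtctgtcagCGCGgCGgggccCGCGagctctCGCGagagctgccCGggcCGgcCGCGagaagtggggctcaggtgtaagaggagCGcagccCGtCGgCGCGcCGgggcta
Nkx2-3, chr19:43612125-43612324, plus strand: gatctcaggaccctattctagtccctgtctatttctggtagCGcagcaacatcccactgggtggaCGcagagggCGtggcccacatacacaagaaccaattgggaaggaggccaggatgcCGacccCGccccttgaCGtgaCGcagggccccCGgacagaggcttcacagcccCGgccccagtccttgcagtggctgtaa
Hoxd8, chr2:74704415-74704614, plus strand: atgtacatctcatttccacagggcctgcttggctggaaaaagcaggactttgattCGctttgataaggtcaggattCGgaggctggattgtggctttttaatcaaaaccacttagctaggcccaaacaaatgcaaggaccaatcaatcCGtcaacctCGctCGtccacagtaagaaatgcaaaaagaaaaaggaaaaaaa
Pou3f3, chr1:42695568-42695767, plus strand: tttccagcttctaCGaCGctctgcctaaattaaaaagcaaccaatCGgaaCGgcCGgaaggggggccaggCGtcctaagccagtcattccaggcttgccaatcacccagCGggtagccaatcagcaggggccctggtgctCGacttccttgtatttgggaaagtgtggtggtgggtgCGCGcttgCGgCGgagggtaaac
The window of Pou4f1 holds 37 CpG, that of Onecut1 23, that of Nkx2-3 9 and that of Hoxd8 5, and that of Pou3f3 holds 12.

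Over the 300 bases, the 49 matched members had a median of 17.0 CpG, against 14.0 for protein-coding genes of the table. The 9 matched members called higher had a median of 17.0, the 3 called lower 18.0, the 16 tested and not called 15.2, and the 21 under the filter 19.0. The called and uncalled members were thus close in this measure. Motifs were searched on both strands, and no motif contains another. ATTGAT, a core that ONECUT factors bind, was in 10.2% of the members' promoters and 7.41% of those of protein-coding genes, and Hoxd8 held it. TAATTA, a homeodomain core, was in 2.04% and 5.32%, and TATAAA in 10.2% and 14.3%. None of the 3 motifs was in the 9 promoters of members called higher, which says only that these letters are not in that stretch.

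The following comparisons are independent of how the families were chosen. Those of Tyrobp deletion are also contrasts of animal-number prefixes. Deletion of Tyrobp in Q175 animals (Q175_TyrobpKO against Q175) called 0 of the 40 tested members in edgeR's quasi-likelihood test, where 0.158% of all genes were called, and DESeq2 also called 0. At an unadjusted p under 0.05 there were 3. Irx3 had a log2 difference of -1.02 ± 0.48 (adjusted p = 0.827 in edgeR), with 0.139 to 0.932 CPM in Q175 and 0.115 to 0.376 in Q175_TyrobpKO. Lhx2 had 0.19 ± 0.08 (adjusted p = 0.818 in edgeR), and Pou6f1 0.15 ± 0.07 (adjusted p = 0.827 in edgeR). Members with large differences between carriers and non-carriers were not called here. Their log2 differences were -0.11 ± 0.25 for Wt1, 0.04 ± 0.26 for Onecut1, -0.31 ± 0.30 for Hoxc4, -0.36 ± 0.25 for Hoxc5, -0.32 ± 0.61 for Pax2 and -0.05 ± 0.44 for Pou4f1. The value of Nkx6-1, -0.80 ± 0.50, had the largest size among these (adjusted p = 0.849 in edgeR). An effect the size of 1 SE would not have been detectable. The 32 members under the filter were compared by 2-sided exact permutation tests over 924 splits, and 0 had a p under 0.05 (smallest p = 0.0606, smallest adjusted p over the 32 tests = 0.706).

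Deletion of Tyrobp without the Q175 allele (TyrobpKO against WT) called 0 members in edgeR, where 0.117% of all genes were called. No member had an unadjusted p under 0.05 there, and DESeq2 called 0. Of the 40 tested members, 5 had under 20 reads in all non-carriers together (Hoxc4, Hoxc5, Hoxc6, Onecut1 and Pax2, with 0 for Hoxc5), so that this comparison could hardly show a difference for them and bears on the other 35 only. The interaction, whether the carrier difference depended on Tyrobp, also called 0 members and 0% of all genes in edgeR. For those 5 members it rests on the same few reads. At an unadjusted p under 0.05 it had 1 member, and DESeq2 called 0. Q175 against WT called 13 members (9 higher and 4 lower), where 9.63% of all genes were called. Q175_TyrobpKO against TyrobpKO called 9 (all higher), where 5.86% were. These 2 contrasts are the 2 parts of the carrier comparison and are descriptions too. The 4 lower members were Lhx2, Pou2f2, Pou3f1 and Pou3f3 in Q175 against WT. In Q175_TyrobpKO against TyrobpKO their log2 differences were -0.20 ± 0.08, -0.29 ± 0.11, -0.28 ± 0.15 and -0.14 ± 0.06, none called. Since the interaction called none of them, a difference between the 2 backgrounds was not shown. Wt1 differed by 5.28 ± 0.36 between Q175 and WT and by 5.18 ± 0.36 between Q175_TyrobpKO and TyrobpKO, the contrast within 1 animal-number prefix.

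Sex was compared among the 12 carriers. edgeR called 0 members, where 0.0610% of all genes were called, and DESeq2 called 0. At an unadjusted p under 0.05, 4 members were higher in females. Genes of the HoxC cluster were among them: Hoxc4 at 0.68 ± 0.31, Hoxc5 at 0.59 ± 0.25 and Hoxc6 at 1.0 ± 0.42, each with an adjusted p of 0.999 in edgeR. The other was Nkx6-2, at 0.33 ± 0.15. None held after adjustment.

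Markers of other cell types were read beside these results. All 7 choroid plexus markers, among them Ttr, were called higher in carriers. Their summed level was 24.8 to 130 CPM in non-carriers and 37.1 to 4376 CPM in carriers, with the highest in Q175 replicate 3. In 5 carriers (Q175 replicates 3 and 5, Q175_TyrobpKO replicates 2, 4 and 6) it was at least 209 CPM, above every non-carrier, and in the other 7 it was at most 120 CPM. Without those 5 animals, Wt1 differed by 5.12 on the log2 scale, Onecut1 by 5.68, Hoxc4 by 7.45, Hoxc5 by 9.10, Pax2 by 5.80, Nkx6-1 by 3.62 and Pou4f1 by 3.34. Hoxa7 (1.48), Nkx2-2 (0.22), Nkx2-9 (0.30) and Lhx2 (-0.19) were no longer called with these fewer libraries, against 1.58, 0.26, 0.42 and -0.26 over all. Nkx2-3 then passed the filter and was called higher, so that 11 members were higher and 3 lower. With all 24 libraries and a term for choroid plexus markers, Nkx2-2, Nkx2-9 and Lhx2 also lost their calls, while Hoxa7 kept its call.

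**Figure D5:**
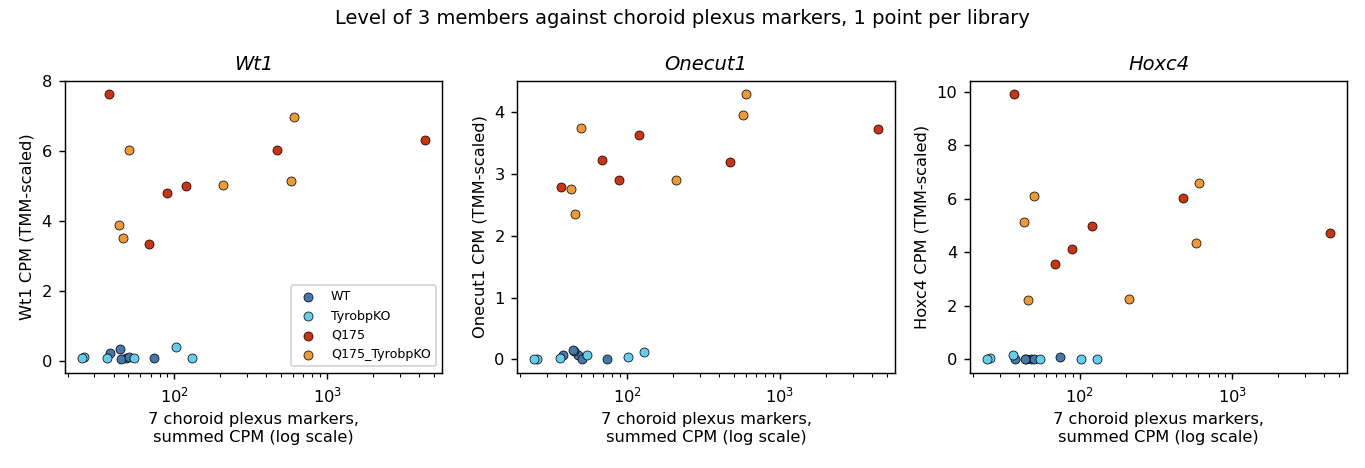
Each point is 1 library: the summed CPM of 7 choroid plexus markers on a logarithmic axis against the TMM-scaled CPM of Wt1, Onecut1 or Hoxc4, colored by genotype. The 7 carriers whose marker sum is at most 120 CPM stand above all non-carriers in the 3 panels.

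Hindbrain and spinal neuron markers, from the regions where Hox genes are normally used, were called in neither direction. Of 8 listed, 3 were tested. Their summed level was 18.7 to 28.4 CPM in non-carriers and 19.4 to 27.5 CPM in carriers. Slc6a5, which marks glycinergic neurons, had 48 reads in non-carriers and 111 in carriers. It had too few reads for the fit, and the part of such cells in the Hox reads was not tested. Cortical markers were not called (87.9 to 956 CPM in non-carriers, 80.4 to 912 in carriers). Neither were thalamic (7 tested), cholinergic, septal or pallidal (7), interneuron (7) or ependymal markers (5). Of 8 meningeal markers 1 was called higher, and of 8 endothelial and pericyte markers 4 were called lower.

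Genes that act on these families were counted from lists chosen for their role. Of 36 genes tested from a Polycomb list, 6 were called higher in carriers and 0 lower, where 8.85% and 9.17% of all genes were. Their median log2 fold change was 0.02 (0.00 over all genes). The list also holds Kdm6a, Kdm6b and Kmt2a, which are not Polycomb subunits but enzymes that act against Polycomb silencing. Cbx8, a chromodomain subunit of Polycomb repressive complex 1, had 8.52 CPM ± 1.14 (SD) in non-carriers and 16.6 ± 3.15 in carriers. No carrier of this gene overlapped a non-carrier. Phf1, Kdm6b, Rnf2 and Bmi1 were also called higher, at log2 differences of 0.14 to 0.24. Of the 11 TALE homeodomain cofactors of Hox proteins, Meis1 alone was called, with 14.5 CPM ± 2.88 in non-carriers and 18.8 ± 3.16 in carriers (SD, n = 12 each). Of 15 antisense and noncoding genes listed as neighbours of these families, 2 were tested. Tbx3os1 was not called, and Haglr was called higher, at 0.90 ± 0.17. It has 211 reads in non-carriers and 402 in carriers and lies opposite Hoxd3. Wt1os, Hotair and Hottip had 0 reads in all libraries.

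Homeobox genes outside the 72 members were also counted, by the family column of the deposited table. Of 57 tested, 11 (19.3%) were called higher and 1 lower. Here too a gene that reached the fit only through its carrier reads had to differ, so this share is a description. Of the 1036 other transcription factor genes tested, 107 (10.3%) were higher and 87 lower. Among genes without such a family, 10.7% were higher. For the 40 tested members it was 32.5%, in families selected on this same difference. Shox2, a short-stature homeobox gene, had 107 reads in non-carriers and 2451 in carriers, at 0 to 1.26 and 3.81 to 9.74 CPM. Lmx1b, a LIM-homeodomain factor of midbrain dopamine and hindbrain serotonin neurons, had 29 and 534 reads, at 0 to 0.261 and 0.649 to 3.04 CPM. In neither gene did a carrier overlap a non-carrier. Vax2, a factor of the ventral eye and forebrain, had 23 and 99 reads with overlapping groups.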

How the data were processed

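The authors deposited raw read counts per gene, whole numbers not normalized, for 24 libraries of mouse striatum. Per the submitters' processing notes, STAR, featureCounts and DESeq2 were used, and the build named there is GRCh38, a human build. The gene identifiers are mouse, and 98.3% of the rows had the same start and end in GENCODE M21 on GRCm38, whose coordinates are used here. Use of strand in counting is not given in the sources used here, so genes that share exons with a neighbour or an antisense gene are uncertain.

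Counts were fitted with edgeR 4.0.16 (R 4.3.3): TMM, filterByExpr on genotype, a robust quasi-likelihood fit of all 24 libraries on genotype and sex, and Benjamini-Hochberg adjustment over 19667 genes. The sex comparison used a mean per genotype and sex. The scripts were tested on simulated data. DESeq2 1.42.0, RLE factors, a filter of 20 reads, no sex term, each sex alone and each library left out were alternatives. Library totals of 25.5 to 34.6 M (megareads) put the limit of a count of 0 over 12 libraries at 0.00889 CPM in non-carriers.

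The members and the gene lists were chosen with earlier results of these data known. Named genes were Wt1 and, from each family, the 3 members highest and 2 lowest among those called and the member with the highest mean CPM. Other members named, among them Hoxa5, Hoxb4, Hoxc8, Hoxd8, Nkx2-3 and Irx5, were chosen after their values were seen. Some genes of these families and lists are not reported here. Replicate numbers only name libraries. The 60 pairs of libraries within a genotype differed by more than sampling noise (mean chi-square per gene of at least 6.89). The labels name 1 animal per library, and p-values measure the spread between these animals.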

Additional observations from a re-analysis of the deposited data

Results flagged for a closer look

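Among 84 groups of 6 libraries (24 named genes with reads in at least 4 libraries of the group), 12 had a library whose gap to the nearest of the others was large against the range of the group. For normally distributed values chance gives about 1 such group in 20, a rate that need not hold for genes with few reads. In non-carriers, Wt1 stood at 0.392 CPM in TyrobpKO replicate 2 (0.0714 to 0.110 in the others), and the same library had the highest Nkx6-1, at 0.428 CPM (0 to 0.112). Pou4f1 was at 0.432 CPM in WT replicate 5 (0.0377 to 0.126), where Pou3f1 was lowest, at 53.9 CPM (76.1 to 84.5). Hoxd1 had no read, 0 CPM, in WT replicate 6 (0.152 to 0.216), Pax6 was at 10.2 CPM in WT replicate 1 (6.63 to 7.66), and Pou2f2 at 11.6 CPM in TyrobpKO replicate 1 (14.0 to 15.3).

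In carriers, Hoxc6 was at 2.02 CPM in Q175 replicate 4 (0.349 to 0.725), the library that was also highest in Wt1, Hoxc4, Hoxc5, Hoxd8 and Nkx6-1 among the Q175 animals. Hoxb5 was at 0.965 CPM in Q175 replicate 3 (0 to 0.177), the library with the most choroid plexus reads. Pax6 at 14.3 CPM (9.82 to 11.2) and Lhx2 at 27.2 CPM (19.0 to 22.0) stood out in Q175 replicate 1, and Pou2f2 at 8.12 CPM (10.9 to 12.5) in Q175 replicate 6.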

How the results depend on the processing

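Wt1, Onecut1, Hoxc4, Hoxc5, Hoxc6, Pax2, Nkx6-1 and Pou4f1 kept their direction and their call in all 33 settings run for each; Wt1 ranged from 5.11 to 5.59 and Nkx6-1 from 2.41 to 4.84 on the log2 scale. No named gene that was called changed sign. Members called lower fell from 4 to 2 in males alone and 0 in females alone, Q175 against WT gave 7 in females alone, and Q175_TyrobpKO against TyrobpKO gave 4 in males alone, each with fewer libraries in the fit. Leaving out 1 library at a time gave 11 to 14 members higher, 4 to 5 lower, 13 to 14 called for Q175 against WT, 8 to 9 for Q175_TyrobpKO against TyrobpKO, and 0 to 0 for the Tyrobp, interaction and sex comparisons. DESeq2 gave 12 higher, with no adjusted p for Hoxa7. Onecut2, Pou3f1, Pou3f3 and Pou2f2 lost their calls in females alone. Uncalled Irx3 and Nkx6-2 changed sign in males alone (0.42 and -0.07), as did Tbx3 in females alone (-0.01). A minimum of 10 or 50 reads would give 85 or 58 members, and 20 reads in non-carriers alone 46. Ratios without the library holding most reads of a member, leaving out the 5 carriers high in choroid plexus markers, and the terms for choroid plexus markers (11 higher, 3 lower) and cortical markers (11 higher, 4 lower), were chosen after seeing the data. No paired analysis was possible because the labels carry no replicate numbers. Genes with few reads are limited by depth: an absent read allows 0.00889 CPM over the non-carriers.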
